A study of Homo sapiens with 4 samples.

Results

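Calretinin (CALB2) is described here with 3 related genes of small calcium-binding EF-hand proteins: calbindin (CALB1), secretagogin (SCGN) and parvalbumin (PVALB). These 4 genes, of the 60683 gene identifiers in the tables, were taken by symbol. The members were chosen by the level of CALB2 in the FOXD2 libraries against the empty vector libraries, with the values already known, so their levels are given as a description, with no test. RNA was measured by polyA RNA sequencing in HCT116, an established human colorectal carcinoma cell line. In the FOXD2 group (2 libraries) the cells carried a pSin lentivirus that held the whole coding sequence of the forkhead factor FOXD2, which binds DNA to control transcription. In the empty vector group (2 libraries) they carried the pSin lentivirus without an insert. Both groups were stable lines made from 1 parental line and were kept in puromycin (5 µg/ml). The labels name no clone and leave unsaid whether the replicates are separate cultures, so the spread behind each p-value may be technical only.

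The EF-hand is a helix-loop-helix fold that holds a calcium ion, and EF-hands usually come in pairs. Calretinin and calbindin are cytosolic proteins that bind calcium quickly and so shape its rise and fall in a cell. Parvalbumin is a slower buffer of fast muscle and of some interneurons, and secretagogin is a related sensor of neuroendocrine cells. In the normal gut calretinin is found in enteric neurons, in pathology it is a marker of mesothelium, and it has been described in poorly differentiated colon carcinoma.

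Library totals ran between 14231338 and 15535817 gene counts. FOXD2 itself stood at 526.5 and 479.1 CPM (counts scaled to library size) in the FOXD2 libraries, against 3.50 and 2.78 CPM in the empty vector libraries. These counts pool the delivered coding sequence with the cells' own transcript. The comparison of the groups called 27.2% of the 14470 genes tested higher in FOXD2 cells and 26.4% lower, at an edgeR adjusted p under 0.05, so a called gene was not a rare one in these data.

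CALB2 was the only one of the 4 genes with more than 1 count in any library. It had 3451 and 2950 counts in the FOXD2 libraries, against 74 and 68 counts in the empty vector libraries. Scaled to library size, these were 221.7 and 201.6 CPM in FOXD2 cells and 5.29 and 4.50 CPM in empty vector cells. Both FOXD2 libraries lay far above both empty vector libraries, and within each group the libraries were close. Of the 14470 genes tested, 38.9% had both FOXD2 libraries above both empty vector libraries by any margin. The exact Poisson 95% intervals, which cover counting error only, were 214.4 to 229.2 and 194.4 to 209.0 CPM in the FOXD2 libraries, against 4.16 to 6.64 and 3.50 to 5.71 CPM in the empty vector libraries. The mean was 211.6 ± 14.2 CPM in FOXD2 cells and 4.90 ± 0.557 CPM in empty vector cells (SD, n = 2 each). The fitted log2 fold change was 5.43 (SE 0.10), a 43.3-fold difference, and it lay between 5.31 and 5.55 when any 1 library was left out. Counts of a bulk culture do not tell more cells with the transcript from more transcript per cell.

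**Figure D1:**
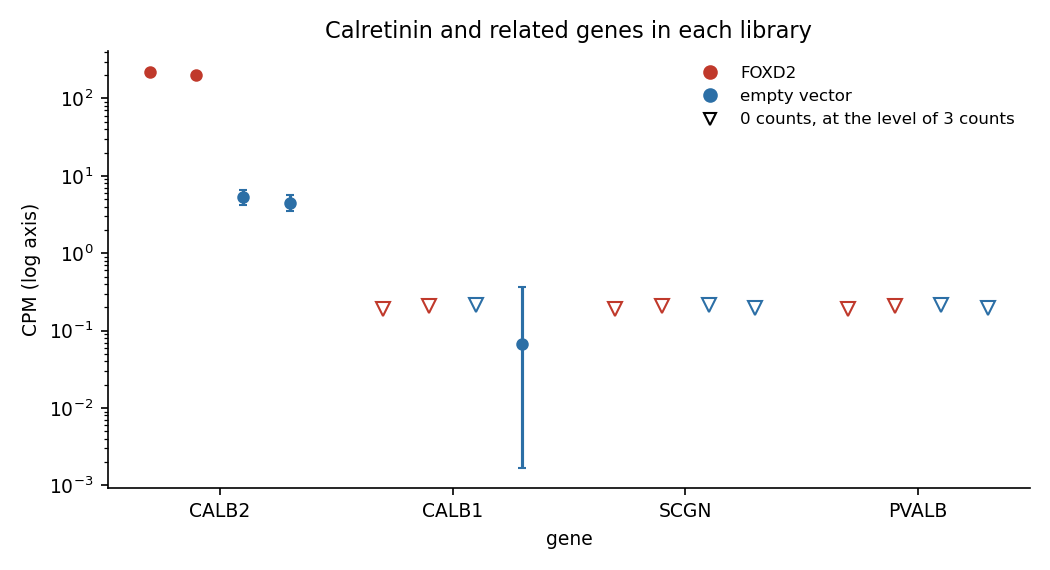
CPM on a log axis of the 4 genes in each library, with FOXD2 libraries in red left of empty vector libraries in blue; points carry exact Poisson 95% intervals and open triangles mark a count of 0, drawn at the level of 3 counts. CALB2 sits at 221.7 and 201.6 CPM in FOXD2 cells and at 5.29 and 4.50 CPM in empty vector cells, while the other genes show a single count among all libraries.

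CALB2 (ENSG00000172137) lies at chr16:71358713-71390438 on the plus strand of GRCh38, and no annotated gene overlaps it. The longest transcript of CALB2 in GENCODE release 29, CALB2-201, has 1466 bases in 11 exons, 813 of them coding. A shorter coding form, CALB2-202, has 1373 bases in 9 exons, 576 of them coding, and joins exon 7 directly to the exon that is exon 10 of CALB2-201. Exon 8 (chr16:71384339-71384378) and exon 9 (chr16:71384783-71384836) are thereby left out. Together they hold 94 bases, 40 and 54, which is not a multiple of 3, so the reading frame after the junction differs between the forms. The exon sequence around this junction is shown because it separates the forms; in CALB2-202 the annotated stop codon lies within it, so the last bases printed for that form are not coding. Both stretches come from chr16:71383970-71385648, plus strand, with exons 8 and 9 in capitals.
CALB2-201: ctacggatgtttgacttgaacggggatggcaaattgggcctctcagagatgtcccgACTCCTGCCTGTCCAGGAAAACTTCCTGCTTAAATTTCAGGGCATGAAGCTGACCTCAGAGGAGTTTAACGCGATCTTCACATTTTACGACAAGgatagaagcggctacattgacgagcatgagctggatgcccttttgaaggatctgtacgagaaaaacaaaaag
CALB2-202: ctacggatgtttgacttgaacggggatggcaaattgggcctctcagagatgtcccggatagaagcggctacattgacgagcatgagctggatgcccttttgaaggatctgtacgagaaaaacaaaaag

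The tables hold no counts per transcript, but they give for each gene the mean transcript length that RSEM weighted by its abundance estimates. For CALB2 it was 1422 and 1418 bases in the FOXD2 libraries, against 1356 and 1260 bases in the empty vector libraries. Both FOXD2 values lie between the lengths of CALB2-201 and CALB2-202, and both empty vector values lie below the length of CALB2-202. The 2 empty vector values were further apart from each other than the nearest values of the groups were. A difference in length between the groups was not tested. CALB2-201 is the only annotated form longer than 1373 bases. If the release 29 lengths are those the authors used, a mean of this size needs at least 52.3% and 48.6% of CALB2 transcripts to be CALB2-201 in the FOXD2 libraries. In the empty vector libraries the smallest share was 0% in both, so the lengths there set no lower limit. The estimates in empty vector cells rest on 74 and 68 counts. For genes at 0 counts, where RSEM gives the plain mean over annotated forms, release 29 gave the deposited length within 0.01 base for 85.4% of 38385 genes, so the annotations differ in part. Among the members, CALB1 matched in the FOXD2 libraries, but SCGN (1191.33 bases deposited) and PVALB (522.5 bases deposited) did not. CALB2 had counts in every library, so its own annotation could not be checked in this way.

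The other 3 genes were at or near 0 in both groups. CALB1 had 0 counts in both FOXD2 libraries, against 0 and 1 counts in the empty vector libraries. SCGN and PVALB had 0 counts in all 4 libraries. A count of 0 allows up to 3 counts, which is 0.193 and 0.205 CPM in the FOXD2 libraries and 0.215 and 0.199 CPM in the empty vector libraries. None of the 3 passed the filter on low counts, so CALB2 was the 1 member of 4 in the fit, and no fold is given where both groups are at the floor. CALB1 (ENSG00000104327) lies at chr8:90058608-90095475 on the minus strand of GRCh38, SCGN (ENSG00000079689) at chr6:25652201-25701783 on the plus strand and PVALB (ENSG00000100362) at chr22:36800684-36819479 on the minus strand. The transcript CALB2-201, with its non-coding parts, shared exact runs of at most 12 bases with CALB1-201, 14 bases with SCGN-202 and 10 bases with PVALB-201.

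CALB2 stood among the abundant transcripts in FOXD2 cells and near the middle of the protein-coding genes in empty vector cells. Per length, it stood at 233.6 and 217.4 TPM (counts scaled to transcript length and library size) in FOXD2 cells, against 5.90 and 5.33 TPM in empty vector cells. Of 19910 protein-coding genes it held place 441 and 463 by TPM in the FOXD2 libraries, against place 9273 and 9418 in the empty vector libraries. In other words, 97.8% and 97.7% of protein-coding genes lay below it in the FOXD2 libraries, and 53.4% and 52.7% in the empty vector libraries. By fitted fold change CALB2 was place 38 of the 14470 genes tested, and place 22 of the 12725 whose mean log2 CPM reached 1. A fitted log2 fold change of at least 5 was found for 0.318% of the tested genes. Its closest genes in the order of fold changes were IL1RN (5.49), KRT75 (5.49), TMPRSS13 (5.43) and TSPAN1 (5.38).

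The EF-hand relatives were the calmodulins, small buffers near the members, the neuronal calcium sensors, the CREC proteins of the secretory pathway, the penta-EF-hand proteins and the calcineurin B and CIB family, 57 genes in 6 lists. Summed with the 4 members, these genes held 3325 and 3357 TPM in the FOXD2 libraries, against 3163 and 3149 TPM in the empty vector libraries. CALB2 made up 7.02% and 6.48% of that sum in FOXD2 cells, against 0.187% and 0.169% in empty vector cells. It was the fourth and the fifth gene of the 61 by TPM in the FOXD2 libraries and place 26 in both empty vector libraries. In FOXD2 cells the mean of CALB2 was 225.5 ± 11.4 TPM, below those of CAPNS1 (629.8 ± 7.15 TPM) and CALM2 (474.4 ± 10.6 TPM), beside that of CALM3 (215.4 ± 5.38 TPM) and above that of CAPN1 (159.6 TPM). CAPNS1 is the small subunit of calpain proteases, and CAPN1 is a catalytic one. CALB2 did not differ from CALM3 beyond their spread, since its libraries at 233.6 and 217.4 TPM overlap those of CALM3 at 211.6 and 219.2 TPM. In empty vector cells CALB2 (5.62 ± 0.403 TPM) stood between VSNL1 (9.21 ± 0.679 TPM) and HPCAL4 (3.69 ± 0.523 TPM), apart from both beyond their spread (SD, n = 2).

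**Figure D2:**
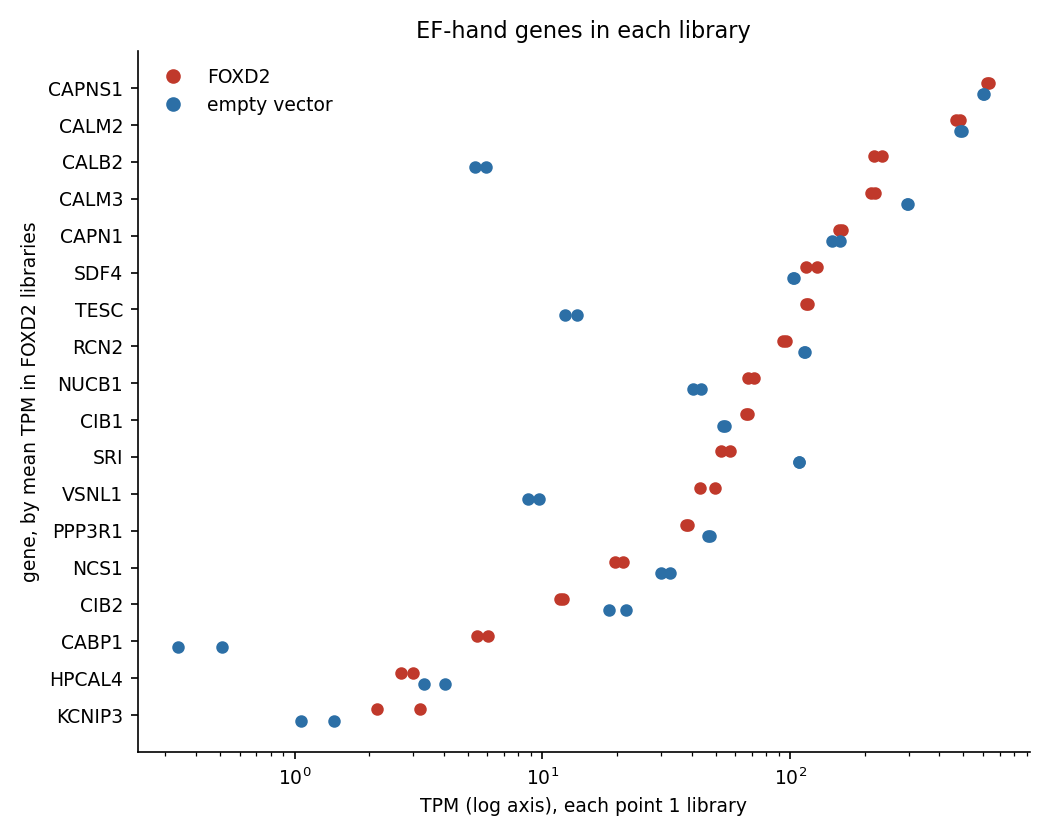
TPM on a log axis, 1 point per library, of CALB2 and of EF-hand genes named in the text, in FOXD2 cells (red) and empty vector cells (blue), ordered by their mean in FOXD2 cells. CALB2 stands beside CALM3 in FOXD2 cells and at 5.90 and 5.33 TPM in empty vector cells, and TESC and VSNL1 also lie above their empty vector levels.

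As a group the EF-hand relatives moved about as often as any genes. Of the 57, 33 were tested, 9 rose (27.3%) and 8 fell (24.2%), against 27.2% and 26.4% of all genes tested, and 15 had 0 counts in every library. Their median log2 fold change was 0.00, against 0.01 over all genes tested. The small buffers nearest the members were among the genes at 0: OCM and OCM2, the oncomodulins closest to parvalbumin, and S100G, the small intestinal calbindin of the S100 family.

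Of the calmodulin genes, CALM3 had 4403 and 4268 counts in FOXD2 cells, against 5578 and 6187 counts in empty vector cells (log2 fold change -0.49, SE 0.06, edgeR adjusted p = 6.5e-11). The more abundant CALM2 had 5773 and 5519 counts in FOXD2 cells, against 5373 and 6069 counts in empty vector cells, and was not called (log2 fold change -0.07, edgeR adjusted p = 0.28). Both encode calmodulin, the general calcium sensor of the cell, and their separate values rest on how RSEM shared reads between related transcripts.

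The neuronal calcium sensors had 4 rises (44.4%) and 2 falls (22.2%) among 9 tested genes of 20, against 27.2% and 26.4% of all genes tested. VSNL1, the visinin-like sensor of neurons, had 834 and 944 counts in FOXD2 libraries, against 192 and 203 counts in empty vector libraries. That is 46.7 ± 4.61 TPM in FOXD2 cells and 9.21 ± 0.679 TPM in empty vector cells (SD, n = 2 each). The log2 fold change was 2.12, with SE 0.10 and edgeR adjusted p = 1.4e-23. CABP1, a calmodulin-like regulator of calcium channels, had 74 and 90 counts in FOXD2 cells, against 8 and 5 counts in empty vector cells (log2 fold change 3.58, SE 0.36, edgeR adjusted p = 2.0e-12). KCNIP3, a potassium channel partner, rose by 0.92 on the log2 scale (edgeR adjusted p = 0.0044), which was lost without empty vector replicate 2 (adjusted p = 0.11) and by DESeq2. NCS1, the neuronal calcium sensor that gives the family its name, fell by 0.72 (edgeR adjusted p = 3.4e-12). HPCAL4, a hippocalcin-like protein, fell by 0.41 (edgeR adjusted p = 0.018), which was lost without FOXD2 replicate 1 (adjusted p = 0.088) and without empty vector replicate 1 (adjusted p = 0.24), by DESeq2 and on TPM. The sensors thus moved in both directions.

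In the calcineurin B and CIB family, 5 of 9 genes were tested. Of these 2 rose (40%) and 2 fell (40%), against 27.2% and 26.4% of all genes tested. TESC, tescalcin, which binds calcineurin and a sodium-proton exchanger, had 1095 and 977 counts in FOXD2 libraries, against 104 and 130 counts in empty vector libraries. Its mean was 117.0 ± 1.51 TPM in FOXD2 cells and 13.0 ± 1.06 TPM in empty vector cells (SD, n = 2 each). The log2 fold change was 3.09, with SE 0.11 and edgeR adjusted p = 1.2e-31. After CALB2, TESC was the gene with the widest gap in TPM between the groups among the EF-hand genes listed here. CIB1, a calcium- and integrin-binding protein, rose by 0.27 (edgeR adjusted p = 0.0062), which was lost without empty vector replicate 1 (adjusted p = 0.096) and by DESeq2. Its relative CIB2 fell by 0.55 (edgeR adjusted p = 0.0019), and PPP3R1, the regulatory B subunit of calcineurin, fell by 0.33 (edgeR adjusted p = 8.7e-05).

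Of the 9 tested penta-EF-hand genes of 11, 1 rose (11.1%) and 1 fell (11.1%), against 27.2% and 26.4% of all genes tested. SRI, sorcin, which binds ryanodine receptors, had 526 and 507 counts in FOXD2 cells, against 888 and 1000 counts in empty vector cells (log2 fold change -0.92, SE 0.08, edgeR adjusted p = 4.6e-14). CAPN8, a calpain of the stomach, is added after its values were seen, since it was called at a low level: it had 24 and 23 counts in FOXD2 cells, against 0 and 1 counts in empty vector cells, a ratio of 45.3 with an exact 95% interval of 7.73 to 1825. Of the 6 tested CREC genes of 7, 2 rose (33.3%) and 1 fell (16.7%). NUCB1, a Golgi calcium-binding protein, rose by 0.65 (edgeR adjusted p = 2.0e-11). SDF4, which sorts secretory cargo in the Golgi, rose by 0.22 (edgeR adjusted p = 0.0047), lost without FOXD2 replicate 1 (adjusted p = 0.18) and without empty vector replicate 1 (adjusted p = 0.11). RCN2, a reticulocalbin of the endoplasmic reticulum, fell by 0.33 (edgeR adjusted p = 2.4e-05).

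Genes that move calcium across membranes, the partners of a cytosolic buffer in setting calcium, were changed in both directions. Of 53 channels, pumps and exchangers, 37 were tested, 15 rose (40.5%) and 9 fell (24.3%), against 27.2% and 26.4% of all genes tested, with a median log2 fold change of 0.25. Without scaling factors between libraries the counts were 17 higher and 6 lower. The 15 rises became 10 by DESeq2, which called fewer genes in both directions across the transcriptome. The 9 falls became 5 without FOXD2 replicate 1, without empty vector replicate 1 or without empty vector replicate 2, and 5 by DESeq2. TRPV2, a cation channel, had 101 and 70 counts in FOXD2 cells, against 6 and 14 counts in empty vector cells (log2 fold change 3.02, SE 0.34, edgeR adjusted p = 4.8e-11). CACNA1A, the pore of P/Q-type voltage-gated channels, had 94 and 86 counts in FOXD2 cells, against 27 and 31 counts in empty vector cells (log2 fold change 1.58, edgeR adjusted p = 6.4e-07). STIM1, the endoplasmic reticulum sensor that opens ORAI channels and itself an EF-hand protein, rose by 1.16 (edgeR adjusted p = 6.2e-18), at 25.5 TPM in FOXD2 cells and 11.3 TPM in empty vector cells. The falls were led by TRPC1, a cation channel, with a log2 fold change of -1.24 (edgeR adjusted p = 1.0e-04). MCUB, the inhibitory subunit of the mitochondrial uniporter, fell by 0.69 (edgeR adjusted p = 4.0e-07), and SLC24A1, a sodium-calcium-potassium exchanger, fell by 0.63 (edgeR adjusted p = 4.1e-05), not called on TPM.

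Of 10 proteins described as partners of calretinin, calbindin or secretagogin, 8 were tested, with a median of -0.17. Of these 2 rose (25%) and 4 fell (50%), against 27.2% and 26.4% of all genes tested. CACNA1A rose as above, and CROCC, the ciliary rootlet protein, rose by 0.43 (edgeR adjusted p = 3.8e-04). The falls included SNAP23, a membrane fusion protein, at -0.56 (edgeR adjusted p = 1.5e-06), and KIF5B, a kinesin heavy chain, at -0.37 (edgeR adjusted p = 2.8e-07). SNAP25, the neuronal fusion protein bound by secretagogin, was near the floor with 3 and 3 counts in FOXD2 cells and 5 and 6 counts in empty vector cells. Of 7 genes of vitamin D calcium handling, the setting in which intestinal calbindins are best known, 5 were tested, 1 rose (20%) and 2 fell (40%). CYP24A1, which breaks down active vitamin D, had 208 and 174 counts in FOXD2 cells, against 1348 and 1398 counts in empty vector cells (log2 fold change -2.90, SE 0.09, edgeR adjusted p = 5.1e-33). VDR, the vitamin D receptor, rose by 0.73 (edgeR adjusted p = 4.1e-09). ATP2B1, a plasma membrane calcium pump, fell by 0.18 (edgeR adjusted p = 0.025), lost without FOXD2 replicate 1 (adjusted p = 0.088), without empty vector replicate 1 (adjusted p = 0.064) and without empty vector replicate 2 (adjusted p = 0.21), by DESeq2, on TPM and with a replicate block.

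**Figure D3:**
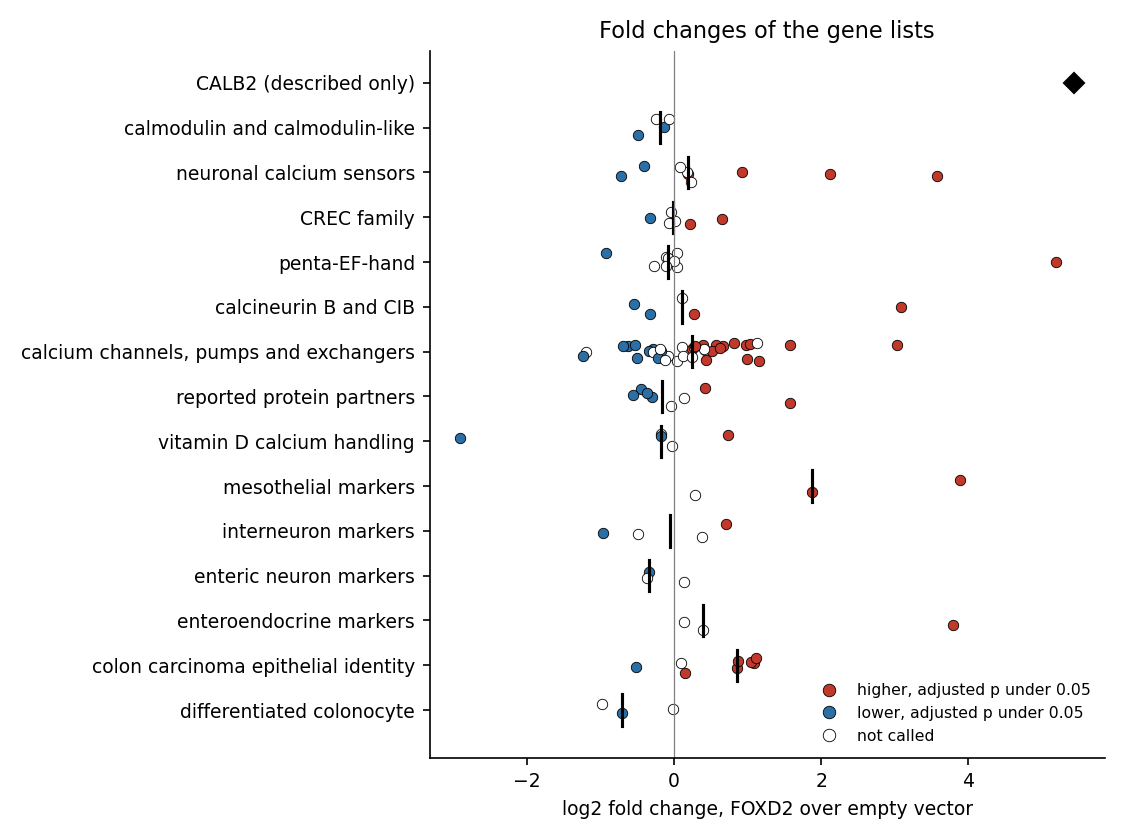
Fitted log2 fold changes, FOXD2 over empty vector, of the tested genes in each list, with bars at list medians; filled points passed an edgeR adjusted p of 0.05 (red higher, blue lower) and the diamond is CALB2, described only. CALB2 lies at 5.43, the EF-hand lists centre near 0, and the point of CAPN8 beside 5 rests on 1 count in empty vector cells.

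Because calretinin marks mesothelium and several kinds of neuron, markers of those cells were read beside it. Of 52 markers of mesothelium, interneurons, enteric neurons and enteroendocrine cells, 23 had 0 counts in every library and 13 were tested, of which 4 rose (30.8%) and 2 fell (15.4%), against 27.2% and 26.4% of all genes tested. With tests on TPM, 3 rose and 3 fell. The mesothelial list summed to 101.8 and 99.1 CPM in FOXD2 cells, against 27.8 and 27.9 CPM in empty vector cells. Nearly all of it was MSLN, mesothelin, which many carcinomas also express, with 1520 and 1383 counts in FOXD2 cells, against 359 and 400 counts in empty vector cells (log2 fold change 1.88, SE 0.08, edgeR adjusted p = 7.8e-27). PDPN, HAS1, ITLN1, PRG4 and CDH2 were at 0 in all libraries, and WT1, the mesothelial transcription factor, had 2 and 0 counts in FOXD2 cells and 0 in both empty vector libraries. KLK11, a kallikrein named after its values were seen, had 41 and 39 counts in FOXD2 cells, against 3 and 2 counts in empty vector cells.

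The neuronal lists were level or lower in FOXD2 cells. Interneuron markers summed to 17.1 and 18.2 CPM in FOXD2 cells, against 17.7 and 17.2 CPM in empty vector cells, with 7 of 14 at 0 in all libraries. GAD1, the GABA-synthesising enzyme, rose by 0.70 (edgeR adjusted p = 0.0020), and DLX2, a homeobox factor of interneurons, fell by 0.96 (edgeR adjusted p = 0.0034), lost without empty vector replicate 2 (adjusted p = 0.067) and by DESeq2; GAD1 was not called by DESeq2 or on TPM. Enteric neuron markers summed to 105.9 and 100.0 CPM in FOXD2 cells, against 124.8 and 132.9 CPM in empty vector cells, mostly TUBB3, a tubulin, which fell by 0.33 (edgeR adjusted p = 4.6e-05). ELAVL4, UCHL1, HAND2 and STMN2 of that list were at 0. Enteroendocrine markers summed to 250.7 and 309.7 CPM in FOXD2 cells, against 23.7 and 22.7 CPM in empty vector cells. This was mostly SCG2, secretogranin II, at 246.6 and 304.6 CPM in FOXD2 cells, against 20.4 and 19.5 CPM in empty vector cells (log2 fold change 3.79, SE 0.10, edgeR adjusted p = 8.4e-17). CHGA, INSM1, NEUROD1, NEUROG3, PCSK1, GCG and SST of that list were at 0 in every library. Others of the list had low counts. SYP had 24 and 21 counts in FOXD2 cells, against 14 and 19 counts in empty vector cells. TPH1 had 20 and 20 counts in FOXD2 cells, against 14 and 21 counts in empty vector cells, and neither SYP nor TPH1 was called. The part of these marker levels in the CALB2 difference was not tested.

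Markers of colon epithelium and of mature colonocytes were read as well, given the link of calretinin with poor differentiation. Of 13 genes of colon carcinoma epithelium 8 were tested, 6 rose (75%) and 1 fell (12.5%), against 27.2% and 26.4% of all genes tested. Their median log2 fold change was 0.86. CDH1, E-cadherin, rose by 1.09 (edgeR adjusted p = 1.5e-20), and KRT19, a simple epithelial keratin, by 1.04 (edgeR adjusted p = 1.7e-23). CDX2, the intestinal homeobox factor, had 177 and 196 counts in FOXD2 cells, against 227 and 286 counts in empty vector cells (log2 fold change -0.51, edgeR adjusted p = 0.0010), lost without empty vector replicate 2 (adjusted p = 0.056) and on TPM. CDX1 and CEACAM5 were at 0 in all libraries, and VIL1, villin, had 1 and 6 counts in FOXD2 cells and 2 and 0 counts in empty vector cells. Markers of differentiated colonocytes were low in both groups: of 17, 7 were at 0 in every library and 3 were tested. CA2, a carbonic anhydrase, had 364 and 385 counts in FOXD2 cells, against 552 and 625 counts in empty vector cells (log2 fold change -0.70, edgeR adjusted p = 1.1e-08). KRT20, the keratin of mature colonocytes, had 12 and 10 counts in FOXD2 cells, against 15 and 27 counts in empty vector cells (log2 fold change -0.97, edgeR adjusted p = 0.053). Over both lists 6 of 11 tested genes rose (54.5%) and 2 fell (18.2%), CDX2 and CA2, and tests on TPM gave 6 and 1.

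The genes around CALB2 on chromosome 16 showed no fold of its size. Within 500 kb lie 14 protein-coding genes, of which 11 were tested, with a median log2 fold change of -0.00. Of the 11, 2 rose and 2 fell (2 higher and 1 lower without scaling factors), against 27.2% and 26.4% of all genes tested. CMTR2, an mRNA cap methyltransferase 69.0 kb before CALB2, rose by 0.37 (edgeR adjusted p = 3.0e-04). CHST4, a sulfotransferase 134.8 kb after it, had 15 and 16 counts in FOXD2 cells, against 2 and 5 counts in empty vector cells (log2 fold change 2.06, SE 0.58, edgeR adjusted p = 0.0024). That call was lost without empty vector replicate 1 (adjusted p = 0.098) and by DESeq2, and CHST4 overlaps ZNF19, so its reads are uncertain. PHLPP2, a phosphatase 247.4 kb after CALB2 that overlaps MARVELD3, fell by 0.78 (edgeR adjusted p = 1.5e-07). ATXN1L, which overlaps IST1 and ZNF821, fell by 0.25 (edgeR adjusted p = 0.011), lost without FOXD2 replicate 1 (adjusted p = 0.17) and without empty vector replicate 1 (adjusted p = 0.10), by DESeq2 and on TPM. The other tested neighbours were not called: ZNF821 at -0.50 (edgeR adjusted p = 0.11, and 0.043 without empty vector replicate 2), ZNF23 at -0.19, MARVELD3 at -0.03, ZNF19 at -0.00, AP1G1 at 0.04, IST1 at 0.08 and ENSG00000261611 at 0.20. ENSG00000261611 overlaps ZNF23 and ZNF19 on the same strand, so the reads of these genes are uncertain too. CHST4 and ZNF19 lie on opposite strands, and their overlap matters only if the counting ignored strand, which is not given. The nearest gene, TLE7, 39.8 kb away, had 0 counts in every library. HYDIN had 3 and 1 counts in FOXD2 cells and 0 in both empty vector libraries, and TAT had 2 and 2 counts in FOXD2 cells and 1 and 3 counts in empty vector cells.

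**Figure D4:**
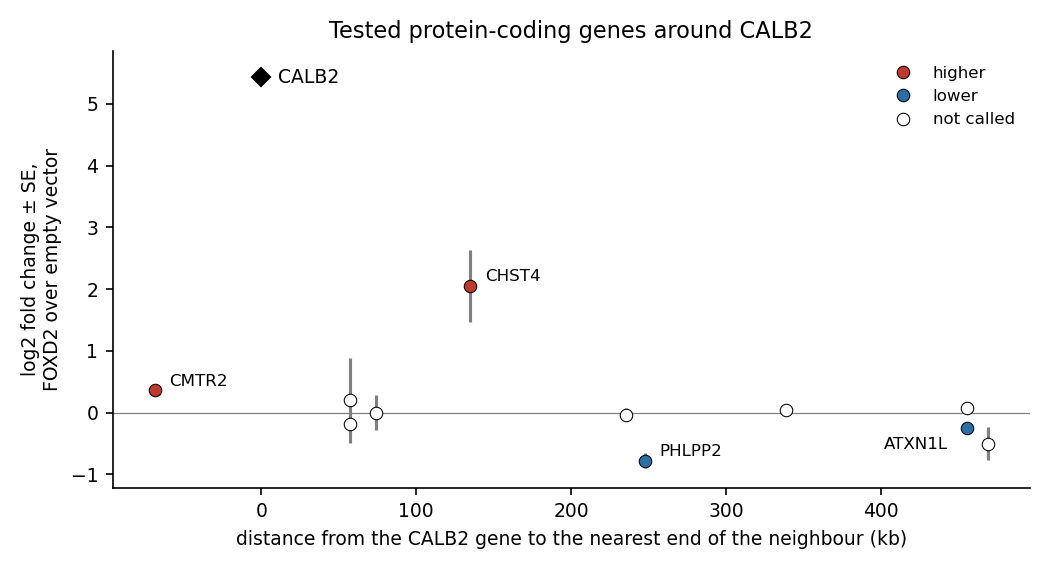
Fitted log2 fold change with its SE, FOXD2 over empty vector, of CALB2 (diamond) and of the 11 tested protein-coding genes within 500 kb, by distance from CALB2 in kb; filled points passed an edgeR adjusted p of 0.05. CALB2 lies at 5.43 and the neighbours between -0.78 (PHLPP2) and 2.06 (CHST4).

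The genes whose pattern was most like that of CALB2 were found by the root mean square difference of log2 CPM over the 4 libraries, each gene centred on its empty vector mean. CXCR4, a chemokine receptor, was the closest (difference 0.10), with 431 and 439 counts in FOXD2 cells, against 9 and 7 counts in empty vector cells. TSPAN1, a tetraspanin, came next (difference 0.11), with 2526 and 2379 counts in FOXD2 cells, against 54 and 59 counts in empty vector cells. CES1, a carboxylesterase (difference 0.15), had 91 and 65 counts in FOXD2 cells and 0 in both empty vector libraries, at least 50.1-fold higher against 3 counts over the group. DAPP1, an adaptor of phosphoinositide signalling (difference 0.25), had 213 and 177 counts in FOXD2 cells, against 3 and 1 counts in empty vector cells. CRISP3, a cysteine-rich secretory protein (difference 0.28), had 107 and 109 counts in FOXD2 cells and 0 in both empty vector libraries, at least 69.3-fold higher against 3 counts over the group. With 4 libraries in 2 groups, this likeness is chiefly one of fold size. For CXCR4, CES1, DAPP1 and CRISP3 it depends on the prior count of 2 added before the log. The fitted log2 fold change was 5.69 for CXCR4, against 5.43 for CALB2 and 5.38 for TSPAN1. The place of CXCR4 ahead of TSPAN1 may therefore rest on the prior count.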

How the data were processed

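The 4 libraries were made from polyA RNA with a strand-specific kit, per the labels' protocols. STAR 2.7.2b and RSEM 1.2.31 with GRCh38 (hg38) were used, per the submitters' processing notes. The annotation release and the strand setting are not given in the sources used here. Per the file headers, the deposited tables hold the expected count, TPM and mean transcript length of each gene, and the signal columns with the posterior SD of the count and the credibility bounds of TPM, which are not printed here.

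Expected counts were rounded and tested with edgeR 4.0.16 in R 4.3.3 (quasi-likelihood, TMM, filterByExpr, robust fit, both directions), FOXD2 against empty vector without a block. The 14470 genes left by the filter share 1 Benjamini-Hochberg adjustment, and a gene is called at an adjusted p under 0.05. SE is the fold change divided by the square root of F. CPM uses TMM-scaled library sizes. Reads carry no molecular identifiers, so intervals and limits cover counting error only. Coordinates, transcripts and sequences are from GENCODE 29; 58496 of 60683 identifiers were matched.

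Members, gene lists and tests were chosen with earlier results of these data known. Named were FOXD2, the members, in each list the 3 largest rises and falls among called genes whose mean log2 CPM reached 1, tested neighbours and the 5 genes most like CALB2. Replicates differed by more than sampling noise (chi-square per degree of freedom 3.91 in the FOXD2 pair and 2.52 in the empty vector pair). The alternatives were RLE factors, other filters, DESeq2 1.42.0, limma 3.58.1 (voom, or log2 TPM with a pseudocount of 1 or 0.1), a replicate block and leaving out each library. A crossed pairing and no scaling factors were added after seeing the data. The fits were checked on simulated data. Some genes that this rule names are not reported here.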

Additional observations from a re-analysis of the deposited data

How the results depend on the processing

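No called gene named here changed direction under the alternatives run; among the neighbours that were not called, AP1G1, MARVELD3, ZNF19 and ENSG00000261611 changed sign under at least 1 of them. The log2 fold change of CALB2 was 5.43 with a replicate block and 5.10 with limma on log2(TPM + 1), which shrinks low values by its construction; leaving out a library gave 5.31 to 5.55. With the replicate block 3680 genes were higher and 3494 lower; shared replicate numbers are a label only, since same-numbered libraries deviated with a correlation of -0.114 over 12725 genes, and crossed pairing gave 4148 and 4089. Leaving out a library gave 3146 to 3579 genes higher and 3046 to 3650 lower, against 3929 and 3816 with all. Genes called lower were 2415 with limma on log2(TPM + 0.1) and 2424 on log2(TPM + 1), and those called higher were 2887 and 2902. DESeq2 called 2707 genes higher and 2916 lower, so it called fewer genes in both directions across the transcriptome. Calcium transport genes called higher, 15 at first, were 10 by DESeq2 and 11 on both TPM scales. Calcium transport genes called lower, 9 at first, were 5 by DESeq2, 3 and 4 on the TPM scales and 5 to 11 on leaving out a library. Epithelial and colonocyte genes called lower, 2 at first, were 1 on both TPM scales and 1 to 2 on leaving out a library. Other cell type markers called lower, 2 at first, were 1 by DESeq2 and 1 to 3 on leaving out a library. Neighbours called higher were 1 by DESeq2 and with a filter of 1 CPM, and 1 to 2 on leaving out a library; those called lower were 1 by DESeq2, on both TPM scales and without scaling factors, and 1 to 3 on leaving out a library. The cause of these changes was not tested. Of the values of single named genes under the alternatives, 719 kept their side of the threshold, 47 lost it and 3 gained it. The gains were IST1 on both TPM scales and ZNF821 on leaving out empty vector replicate 2. ATP2B1 (edgeR adjusted p = 0.077) lost its call with the replicate block, the only gene named here that did; without scaling factors ATP2B1, ATXN1L and HPCAL4 lost it, and TRPC1 lost it on log2(TPM + 0.1).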
